A study of Mus musculus with 6 samples.

Results

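The 5S ribosomal RNA copies described here are the 119 rows, of the 5880 noncoding RNA transcripts in the count table, that the GENCODE vM21 annotation types as rRNA on a nuclear chromosome with a transcript length of 105 to 125 bases. The counts come from small RNA libraries of exosomes, the small vesicles that cells release into their culture medium. UD-P19 exosomes (replicates 1, 2 and 3) came from undifferentiated cells of P19, a pluripotent mouse embryonal carcinoma line, grown in alpha-MEM with fetal bovine serum and then moved to serum-free alpha-MEM with N2 supplement for the day before the medium was collected. P19N exosomes (replicates 4, 5 and 6) came from neurons that the same line formed after retinoic acid and that had been cultured for 8, 10 and 12 days in neurobasal medium with B27 and N2 supplements, so each P19N library is also a different culture age. The P19N cultures were also treated with 5-fluorouridine and uridine against dividing cells, on day 3 and again on day 8 once that day's medium had been taken, and UD-P19 cells were not. Both groups come from 1 cell line, and culture medium and these treatments cannot be told apart from cell state. The P19N cultures started from embryoid bodies, and the sources used here give no measure of their purity.

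5S rRNA is the smallest RNA of the large ribosomal subunit. RNA polymerase III transcribes it, with the factor TFIIIA binding inside the gene, whereas the other cytosolic rRNAs are cut from one long precursor made by RNA polymerase I. The functional genes stand in tandem repeats, and many altered copies, most of them thought to be pseudogenes, are scattered over the genome. Outside the ribosome, 5S rRNA forms a particle with the ribosomal proteins Rpl5 and Rpl11, which can bind Mdm2, the ubiquitin ligase of p53.

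Of the 119 copies, 51 formed a single cluster on mouse chromosome 8 (GRCm38, chr8:123538786-123623745, minus strand), in which consecutive copies lay 1665 to 1727 bases apart and every copy fell in an intron of the protein-coding gene Gm20388 on the opposite strand. The other 68 were spread over 20 chromosomes, with 2 elsewhere on chromosome 8 among them. The 119 rows held 79 different sequences. The most frequent one, 119 bases long and carried by Rn5s, was shared by 32 rows of the cluster, and 5 further sequences were shared by 2 to 4 rows each, which gives 46 identical copies. The remaining 73 rows, 5 of them in the cluster, are variant copies, each with a sequence that no other 5S row has. The length limits left out n-R5s168 (104 bases, 0 counts) and n-R5-8s1, a different cytosolic rRNA (148 bases, 809 counts), and kept n-R5s56 and n-R5s156 (105 bases, 137 and 34 counts) and n-R5s205 (125 bases, 42 counts).

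Sequences were compared over the GENCODE vM21 transcripts, with Rn5s as the reference. Positions are counted from 1 at the 5′ end of Rn5s, and a change is written with the base of Rn5s first, then the position, then the base of the copy.

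The table held 454499, 704725 and 762575 counts in the UD-P19 libraries and 887460, 760295 and 588646 counts in the P19N libraries. These are totals over the table and not sequencing depths, since the methods describe more reads, and more annotated noncoding RNAs, than the table holds. Shares of all counts or of all rows given here are therefore shares of this table. The study calls the transcripts in it differentially associated with the exosome types, and how they were selected is not given in the sources used here. Of its rows, 1257 held no count in any library. A single row, Gm42418, annotated as a long noncoding RNA, took 49.1 to 65.9% of the counts in UD-P19 and 16.3 to 18.2% in P19N exosomes. Scaling to the whole library therefore moves with it. The origin of its reads was not tested, and the rRNA counts given below leave it out. Of the neuronal marker list 11 of 14 names were in the table, none of their 8 tested rows was called, and the summed level was 26.9 to 203 CPM (counts per 1000000, scaled) in UD-P19 and 107 to 162 CPM in P19N exosomes. Of the pluripotency list 5 of 14 names were in the table, with a summed level of 24.8 to 61.2 CPM and 3.96 to 8.35 CPM, and its 1 tested row, Mir17hg, was lower in P19N exosomes (log2 fold change -2.56 ± 0.63 SE, adjusted p = 0.00763, edgeR). None of the 4 glial names was in the table.

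The 5S rows together took a smaller share of the counts in the P19N libraries than in the UD-P19 libraries. These sums may hold the same read many times, since the copies of the most frequent sequence had nearly equal counts and no unique ones (given below), so they do not measure how much of a library was 5S rRNA. The 119 rows summed to 76075, 207413 and 115439 counts in UD-P19 and to 106620, 111231 and 57134 counts in P19N exosomes. As a share of all counts these were 16.7%, 29.4% and 15.1% in UD-P19 (20.4% ± 7.83, SD, n = 3) and 12.0%, 14.6% and 9.71% in P19N exosomes (12.1% ± 2.46, SD, n = 3). The groups did not overlap, but UD-P19 replicate 2 stood well above the rest and the highest P19N library lay just under the lowest UD-P19 library. The difference of -8.32 percentage points had an exact two-sided permutation p of 0.1, the smallest that 3 against 3 libraries can give, and it was -3.82 points without UD-P19 replicate 2. Rn5s, as 1 row, held 0.364%, 0.627% and 0.327% of all counts in UD-P19 and 0.262%, 0.316% and 0.212% in P19N exosomes, again without overlap and with UD-P19 replicate 2 the highest. Among counts outside Gm42418 the 5S share was 41.9%, 57.8% and 44.4% in UD-P19 and 14.4%, 17.5% and 11.9% in P19N exosomes, a wide gap between the groups (difference -33.5 points, exact permutation p = 0.1). Among unique counts the share was 0.242%, 0.794% and 0.212% in UD-P19 and 0.364%, 0.428% and 0.256% in P19N exosomes, and the groups overlapped. The difference was then -0.0666 points, and 0.122 points without UD-P19 replicate 2. Unique counts were 74.3%, 62.1% and 78.0% of all counts in UD-P19 and 33.3%, 32.1% and 38.5% in P19N exosomes. The base of this share therefore differed between the groups, and the overlap does not show equal 5S levels. Over rows annotated as rRNA only, the difference was 0.188 points. The 5S rows made up 99.5 to 99.9% of those counts in every library. This difference could therefore only lie near 0, and nothing is read from it. A share also depends on the counts of all other rows. Fewer vesicles with 5S rRNA and less 5S rRNA per vesicle cannot be told apart in pooled exosome RNA.

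**Figure D1:**
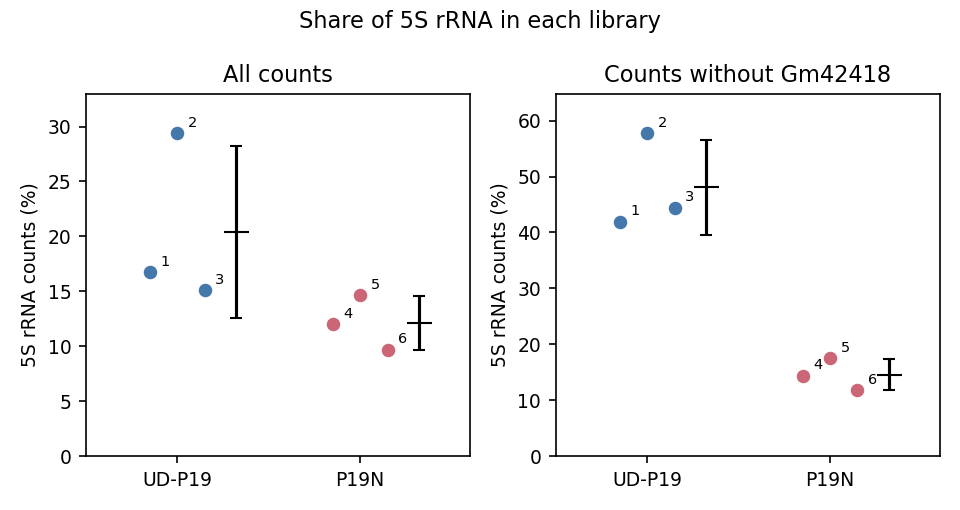
Counts summed over the 119 5S rows as a percentage of all counts (left) and of counts without Gm42418 (right), 1 point per library with its replicate number, and the group mean and SD (n = 3) as a mark and bar. The P19N libraries lie between 9.71% and 14.6% on the left and between 11.9% and 17.5% on the right, below the UD-P19 libraries in both.

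When all 119 rows were replaced by their sum, 5S rRNA stood at 194510, 330384 and 201811 CPM in UD-P19 and at 97284, 132911 and 75868 CPM in P19N exosomes. Every P19N library lay below every UD-P19 library, as in 19.3% of all rows. The log2 fold change was -1.25 ± 0.33 (SE), with an adjusted p of 0.0136 in edgeR's quasi-likelihood test, in a table where 12.7% of 1214 rows were called lower. The call was lost with scaling to total counts alone (log2 fold change -0.75, adjusted p = 0.151), with factors set without snRNAs (-0.93, adjusted p = 0.0540) and on unique counts (-1.34, adjusted p = 0.0649). It was lost without P19N replicate 4 (-1.21, adjusted p = 0.0626) or 6 (-0.998, adjusted p = 0.114). It was also lost at -1.07 (adjusted p = 0.0504) when identical transcripts in the rest of the table were summed as well. The way a read that matches several rows was counted is not given in the sources used here, so a sum over copies may hold the same read more than once.

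Other cytosolic rRNA and other products of RNA polymerase III gave a background for these values. n-R5-8s1, a row on chromosome 18, is named after an rRNA cut from the RNA polymerase I precursor. Whether its reads come from that precursor was not tested. The row held 70, 433 and 183 counts in UD-P19 and 57, 33 and 33 in P19N exosomes. It was lower in P19N exosomes (log2 fold change -2.65 ± 0.50 SE, adjusted p = 0.00115, edgeR). Of 7 other rRNA rows tested 3 were called lower and none higher, beside 9.02% of all 1286 rows called lower, but 1 of the 3, Gm26381, shares a run of 54 bases with Rn5s and has no unique count, so it may hold 5S reads. The mitochondrial mt-Rnr1 and mt-Rnr2 were not called (log2 fold changes -0.60 ± 0.63 and -0.39 ± 0.59 SE). Among 10 rows of other polymerase III transcripts, 3 were called higher in P19N exosomes and none lower, beside 15% of all rows called higher. The 3 were Rny1 and Rny3, the Y RNAs bound by the Ro protein (1.74 ± 0.30 and 1.93 ± 0.34 SE), and 1 of the 2 rows of Rmrp, the RNA of RNase MRP (1.75 ± 0.32 SE). Rn7sk, which holds back the elongation factor P-TEFb, had a log2 fold change of 0.81 ± 0.41, and the signal recognition particle RNAs Rn7s1 and Rn7s2 had 0.63 ± 0.41 and 0.62 ± 0.41, and none of these was called.

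Summed counts were spread unevenly over the rows. The 46 identical copies held 88.1% of the 673912 5S counts, and the 32 copies of the most frequent sequence alone held 69.0%. As identical rows may count the same reads, these percentages follow the number of rows as well as the reads, and so do the other percentages of 5S counts given here. Of the 73 variant copies 27 reached 15 counts over the 6 libraries, 32 held 1 to 14 counts and 14 held none. The 46 copies under 15 counts had 143 counts between them, differed from Rn5s by 8 to 43 edits and shared at most 35 bases in a row with it.

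The 32 copies of the most frequent sequence could not be told apart. In UD-P19 replicate 1 they held 1601 to 1669 counts each (mean 1643, SD 14.6), in replicate 2 4397 to 4480 (SD 22.6) and in replicate 3 2448 to 2526 (SD 18.3). In P19N replicates 4, 5 and 6 they held 2273 to 2331 (SD 14.6), 2386 to 2437 (SD 13.6) and 1217 to 1274 (SD 13.5). In all 6 libraries this spread was smaller than the counting error of a single such row, taken as the square root of the mean. That error was 40.5 in UD-P19 replicate 1 and 35.2 in P19N replicate 6. None of the 32 held a single count in the column of unique reads, taken here as reads that match 1 row. Each of these rows is therefore 1 measurement of a shared sequence, and the 32 are not replicates.

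Counts followed the 3′ part of the molecule. The 46 rows whose last 55 or more bases equal those of Rn5s held 13321 to 14628 counts each, and they include copies with large changes nearer the 5′ end. T62A in n-R5s130, C44T in n-R5s112 and T33C in n-R5s136 left 14053, 14000 and 13839 counts beside 14441 to 14628 in the unaltered copies. In every library n-R5s130 held 93.7 to 98.8% of the counts of Rn5s. Gm24089, with its 10-base deletion, held 13717. The 4 copies of this kind outside the cluster, n-R5s194 (13512), n-R5s185 (13457), n-R5s2 (13380) and n-R5s33 (13321), lie on chromosomes 3, 4, X and 16. n-R5s185 lies in an exon of Tmem38b and n-R5s33 in an intron of Lrch3, both on the same strand as these genes.

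All 73 rows with a change within the last 54 bases held at most 2586 counts. n-R5s115, which differs from Rn5s by C3A and G86A only, held 1488 counts. n-R5s102, altered by G89T, A90T and G93C, held 1087, n-R5s109 (C39T, C44T and G99A) 1620 and n-R5s195, with A90G as its last change, 2586. No row held a total between 2586 and 13321 counts. This division by the last 55 bases was made after the counts were seen and carries no test. The rows with the intact 3′ end held 97.2 to 98.3% of the 5S counts in each of the 6 libraries, with little difference between the groups (97.5% ± 0.381 in UD-P19 and 98.0% ± 0.311 in P19N, SD, n = 3).

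**Figure D2:**
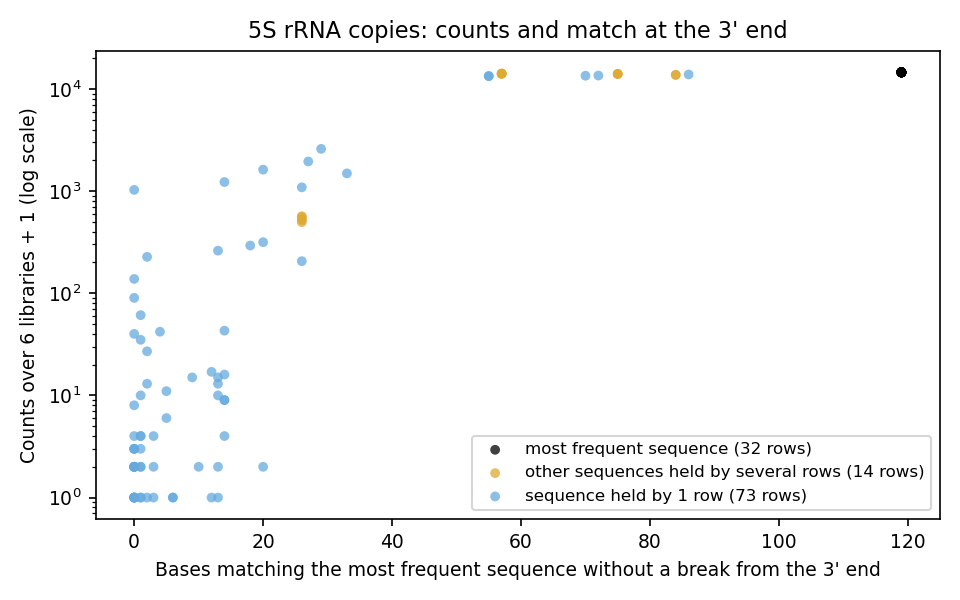
Counts over the 6 libraries plus 1 (log scale) against the number of bases that match the most frequent 5S sequence without a break from the 3′ end, 1 point per copy. The 46 copies with 55 or more such bases lie between 13321 and 14628 counts, and the 73 others at 2586 counts or fewer.

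Exact-match counts, assumed to be reads without a mismatch because the column is not defined in the sources used here, split the copies the other way. They were 16.8% of the counts of the most frequent sequence and 15.8% over the 46 rows with an intact 3′ end. The 7 rows that keep a run of 86 or more bases from the first 3 bases on but differ at the 3′ end (n-R5s102, n-R5s193, n-R5s101, n-R5s129, n-R5s114, n-R5s131 and n-R5s119) held only 495 to 1087 counts each, but 78.1% of these were exact. n-R5s102 held 109, 275 and 280 counts in UD-P19 and 159, 129 and 135 in P19N exosomes, or 6.22 to 11.2% of the counts of Rn5s in UD-P19 and 5.36 to 10.8% in P19N exosomes, ranges that overlap almost entirely. Over all 5S counts the exact share was 19.1%, 12.9% and 26.6% in UD-P19 and 14.6%, 12.6% and 16.9% in P19N exosomes. These values overlap, and the difference of -4.84 percentage points had an exact two-sided permutation p of 0.3. It was -1.32 points without UD-P19 replicate 3 and -8.16 points without UD-P19 replicate 2.

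Unique counts came from few variant copies. Only 8255 of the 5S counts (1.22%) were unique, and 5 rows, n-R5s195 (2564), n-R5s71 (1921), n-R5s5 (1207), n-R5s109 (1104) and n-R5s115 (739), held 91.3% of them. In n-R5s195, n-R5s71 and n-R5s5 99.1%, 98.6% and 98.5% of the counts were unique but only 11.6%, 8.83% and 6.12% were exact matches, so most reads given to these copies alone did not match them fully. In n-R5s28 the 2 shares were both high (78.1% unique and 82.5% exact). n-R5s195 lies on chromosome 3 (chr3:39635964-39636082, minus strand) within an exon of Gm42781 on the opposite strand, n-R5s71 on chromosome 11 (chr11:74319792-74319910) and n-R5s5 on the X chromosome (chrX:18323444-18323562), the latter 2 in no other annotated gene.

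The unique share of 5S counts was 1.07%, 1.68% and 1.09% in UD-P19 and 1.01%, 0.939% and 1.02% in P19N exosomes. UD-P19 replicate 2 was far above the others, and the remaining 5 libraries lay close together. The difference of -0.293 percentage points (exact two-sided permutation p = 0.1, the smallest possible) was -0.0959 points without that library. n-R5s71 and n-R5s5 carried much of this excess. Unique counts of n-R5s71 were 126, 1170 and 207 in UD-P19 and 186, 161 and 71 in P19N exosomes. Those of n-R5s5 were 53, 750 and 93 in UD-P19 and 119, 119 and 73 in P19N exosomes. n-R5s195 did not stand apart in this way, with 319, 792 and 431 against 421, 419 and 182 unique counts, and neither did Rn5s, with 1654, 4418 and 2497 against 2321, 2405 and 1250 counts of all kinds.

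The log2 ratio of variant to identical 5S counts was -2.91, -2.81 and -2.89 in UD-P19 and -2.92, -2.93 and -2.93 in P19N exosomes. The P19N values lay just under the UD-P19 values without overlap. The difference was -0.06 (exact two-sided permutation p = 0.1, the smallest possible), and -0.03 without UD-P19 replicate 2. Most of the variant counts come from the 5 variant rows with an intact 3′ end (67509 of 80429), of whose counts only 0.221% were unique. These rows may count the reads of the identical copies, which would hold the ratio near 1 value in any library, so a small difference says little about the variant copies. With unique counts for the variant copies the ratio was -6.36, -5.71 and -6.33 in UD-P19 and -6.45, -6.56 and -6.44 in P19N exosomes, and UD-P19 replicate 2 stood far above the rest. The difference was then -0.35 (exact two-sided permutation p = 0.1), and -0.14 without that library. With the classes set by the last 55 bases instead, chosen after the values were known, the ratio was -5.58, -5.21 and -5.14 in UD-P19 and -5.59, -5.85 and -5.39 in P19N exosomes. These groups overlap, and the difference was -0.30, or -0.18 without P19N replicate 5.

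In the test of each copy for itself, P19N against UD-P19, 73 of the 119 copies reached 15 counts and entered. The fit called 8 of them lower in P19N exosomes and none higher (edgeR quasi-likelihood test, adjusted p at most 0.05), beside 9.02% of all 1286 rows tested that were called lower. The share of copies called was near that of the table. The signs of the fold changes and the separation of the groups are given as a description and were not tested over the copies as a set. The fold change was negative for 72 of the 73, with a median log2 fold change of -0.82 beside 0.21 over all rows tested, and in 67 of the 73 every P19N library lay below every UD-P19 library, beside 16.8% of all rows. The exception in sign was n-R5s211, with 16 counts and a log2 fold change of 0.10 ± 0.95 (SE). Because 46 of the 73 rows have an identical copy and no unique count, they may count the same reads as each other. The 5 variant rows with an intact 3′ end, with 0.221% of their counts unique, may do so too. These tallies therefore do not stand for as many separate measurements.

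The copies of the most frequent sequence were not called in this fit. Rn5s stood at 4051, 5222 and 4122 CPM in UD-P19 (4465 ± 657, SD, n = 3) and at 2727, 3173 and 1739 CPM in P19N exosomes (2547 ± 734, SD, n = 3). The groups did not overlap, and the log2 fold change was -0.81 ± 0.34 (SE, adjusted p = 0.0952, edgeR). It ran from -0.52 without UD-P19 replicate 2 to -1.23 without P19N replicate 5. Among the 32 copies it ran from -0.83 to -0.79. The 3 identical copies with the highest totals, Gm22109, n-R5s142 and Gm26391, had -0.82, -0.81 and -0.80, and n-R5s117 and Gm25212, which with n-R5s193 (-0.78) had the smallest decrease among copies with a mean of at least 10 counts, had -0.80 and -0.79. The 3 variant copies with the highest totals, n-R5s136, n-R5s194 and n-R5s185, had -0.83, -0.82 and -0.82 and were not called either.

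These copies sat near the threshold, and the call turned on how the libraries were scaled. With DESeq2 64 of 73 copies were called lower (15.8% of all rows), and with DESeq2's size factors in edgeR 59 (14.7% of all rows). Leaving Gm42418 out gave 62 (15.3% of all rows), and factors set without the rRNAs gave 67 (17.7% of all rows), while scaling to total counts alone left 8 (7.0% of all rows). On unique counts 3 of 14 copies were called, beside 10.6% of all rows, and on exact-match counts 56 of 70, beside 17.5%. A filter of 5 counts gave 58 of 84 copies, beside 9.96% of all rows, and an adjusted p of at most 0.01 gave 3 of 73, beside 4.59%. The median log2 fold change of the 5S copies was -1.20 beside -0.14 over all rows with factors set without the rRNAs, -0.75 beside 0.34 with total counts, and -1.30 beside 0.30 on exact-match counts. It was -0.52 beside 0.60 without UD-P19 replicate 2 and -1.25 beside -0.03 without P19N replicate 5. Leaving out UD-P19 replicate 1 or 3 or P19N replicate 5 gave 60, 56 and 53 calls, beside 13.8%, 13.0% and 9.99% of all rows. Leaving out UD-P19 replicate 2 or P19N replicate 4 or 6 gave 7, 8 and 6, beside 13.2%, 6.47% and 8.96%. None of these settings called a 5S copy higher.

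**Figure D3:**
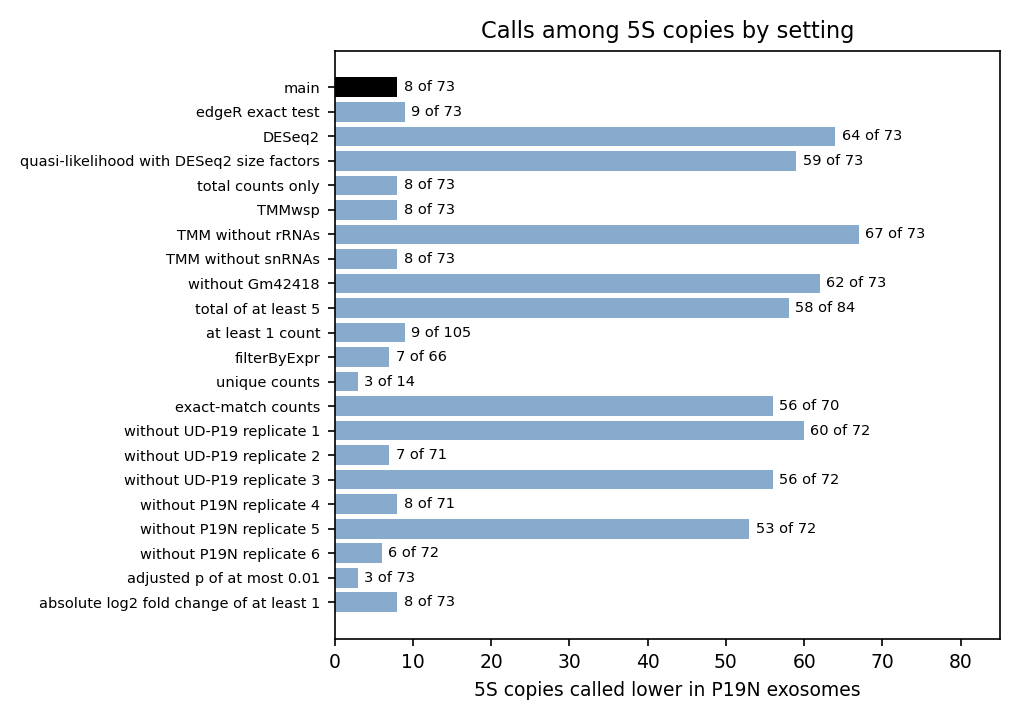
Number of 5S copies called lower in P19N exosomes under each setting, out of the copies that entered that fit. The main setting (black bar) gave 8 of 73, and the others range from 3 of 14 on unique counts to 67 of 73 with scaling factors set without the rRNAs.

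The 8 copies called were variant copies with 42 to 1948 counts. n-R5s28 (chr17:47848834-47848952, in no other annotated gene) stood at 154, 113 and 142 CPM in UD-P19 (137 ± 20.9, SD) and at 18.8, 19.8 and 22.3 CPM in P19N exosomes (20.3 ± 1.78, SD, n = 3). The groups were far apart, and the log2 fold change was -2.74 ± 0.49 (SE, adjusted p = 0.000757, edgeR). It was also called on its unique counts, which were 55, 64 and 72 in UD-P19 and 13, 12 and 12 in P19N exosomes (log2 fold change -2.60 ± 0.42 SE, adjusted p = 0.00121). Relative to Rn5s in the same library, n-R5s28 had 3.81%, 2.17% and 3.44% of the counts in UD-P19 and 0.689%, 0.624% and 1.28% in P19N exosomes, without overlap between the groups.

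n-R5s56 (chr13:103396202-103396306) had the largest decrease among copies with a mean of at least 10 counts. It stood at 34.3, 43.7 and 114 CPM in UD-P19 and 9.40, 5.28 and 6.96 CPM in P19N exosomes (log2 fold change -3.12 ± 0.63 SE, adjusted p = 0.00204, edgeR). Gm26197 (chr14:78311226-78311340) stood at 29.4, 21.3 and 29.7 CPM against 7.05, 3.96 and 4.17 CPM (-2.34 ± 0.61, adjusted p = 0.0103), and it kept its call on unique counts (-2.46 ± 0.67, adjusted p = 0.0228). In both copies the groups were well separated.

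n-R5s127, the only called copy of the chromosome 8 cluster (chr8:123584535-123584653), stood at 56.3, 65.0 and 142 CPM in UD-P19 and 18.8, 14.5 and 19.5 CPM in P19N exosomes (log2 fold change -2.31 ± 0.55 SE, adjusted p = 0.00571, edgeR). It shares G89T, A90T and G93C with n-R5s102 but is also altered at bases 1, 2 and 34 to 36. As a percentage of n-R5s102 it held 21.1%, 20% and 30.7% of the counts in UD-P19 and 10.1%, 8.53% and 10.4% in P19N exosomes, without overlap between the groups. n-R5s64 (chr12:85718477-85718595) stood at 51.4, 91.0 and 170 CPM against 25.9, 26.4 and 23.7 CPM (-2.04 ± 0.54, adjusted p = 0.0110), and n-R5s1 on the Y chromosome (chrY:991630-991748) at 53.9, 78.0 and 140 CPM against 24.7, 19.8 and 23.7 CPM (-1.99 ± 0.53, adjusted p = 0.0109). In all 3 copies UD-P19 replicate 3 was the highest library and the P19N libraries lay close together. Almost none of these counts were unique (1 of 205, 5 of 260 and 15 of 226), and the unique counts of n-R5s1 alone gave -0.79 ± 0.90 (adjusted p = 0.555).

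The other two calls were lost without single libraries. n-R5s71 stood at 309, 1395 and 352 CPM in UD-P19 and 223, 215 and 106 CPM in P19N exosomes (log2 fold change -1.92 ± 0.56 SE, adjusted p = 0.0197, edgeR), and without UD-P19 replicate 2 it had -0.71 (adjusted p = 0.108). Without P19N replicate 6 it had -1.64 (adjusted p = 0.0864), and on its unique counts, which are nearly all of its counts, it was not called (-2.08 ± 0.70, adjusted p = 0.0524). n-R5s205, in an intron of Stard9 on the opposite strand (chr2:120640711-120640835), held 1, 22 and 15 counts in UD-P19 and 3, 1 and 0 in P19N exosomes (-3.32 ± 0.95, adjusted p = 0.0172). Its groups overlap, and the call was lost without P19N replicate 5 or 6 (adjusted p = 0.0552 and 0.0576), while its unique counts gave a call (-3.21 ± 1.04, adjusted p = 0.0444). n-R5s5, not called at -1.54 ± 0.62 (adjusted p = 0.0847), turned to 0.10 without UD-P19 replicate 2. n-R5s195 was not called (-0.89 ± 0.40, adjusted p = 0.112), with 781, 947 and 713 CPM in UD-P19 and 504, 558 and 253 CPM in P19N exosomes.

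**Figure D4:**
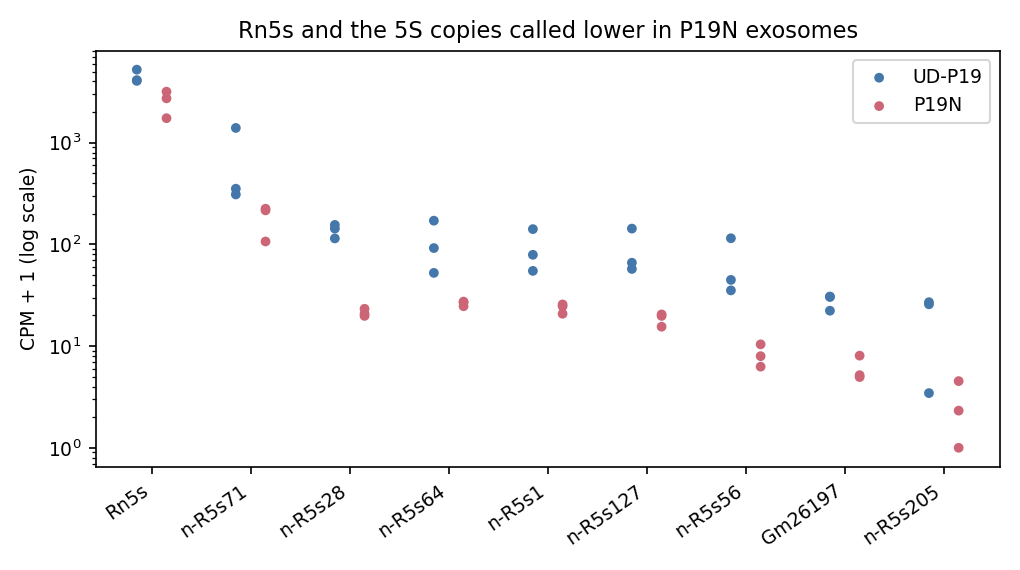
CPM plus 1 (log scale) in each library for Rn5s and the 8 copies called lower in P19N exosomes, 3 libraries per group. In n-R5s28 the P19N libraries stood at 18.8 to 22.3 CPM and the UD-P19 libraries at 113 to 154 CPM, and in n-R5s205 the groups overlap.

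In 7 of the 8 called copies the longest run in common with Rn5s lay inside the molecule, between bases 32 and 91. The exception was n-R5s28, which had the lowest adjusted p and whose longest run covers bases 1 to 36. This was noticed in the values, so it is given as a description. In 11 tested rows the longest run in common with Rn5s begins between bases 30 and 60 and the row has neither an intact 3′ end nor an intact 5′ part. Their log2 fold changes ran from -3.32 to -0.83 with a median of -2.04, and 6 of the 11 were called, beside 9.02% of all rows. Nothing is read from this count, since the rows were picked from the values. The run covers bases 32 to 88 in n-R5s64, 38 to 91 in n-R5s1, 37 to 88 in n-R5s127, 38 to 83 in n-R5s56, 38 to 75 in Gm26197 and 34 to 62 in n-R5s205. The row with the most counts among the 11, n-R5s109 (1620, bases 45 to 98), was not called at -0.83 (adjusted p = 0.114), close to the rows with an intact 3′ end, and n-R5s151 (315 counts, bases 37 to 80) was not called at -1.32. The 3 others not called held 15 to 39 counts. The 46 rows with an intact 3′ end ran from -0.84 to -0.79 and the 7 rows with an intact 5′ part from -0.95 to -0.78. The exact-match share over the 11 rows was 65.8%.

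Of 5647 rows outside the 5S copies whose sequence was at hand, 5 share 30 or more bases in a row with Rn5s, and in all 5 that run lies between bases 33 and 91. They are Gm26381, an rRNA row of 92 bases that the length rule leaves out, and 4 rows of 60 or 61 bases annotated as miRNA, of which Gm47281, Gm47285 and Gm47301 lie within n-R5s1, n-R5s64 and n-R5s193 on the same strand. All 5 were called lower in P19N than in UD-P19 exosomes (log2 fold change -2.68 to -2.14, edgeR). Gm47301 held 25, 74 and 108 counts in UD-P19 and 25, 18 and 15 in P19N exosomes (-2.14 ± 0.54 SE, adjusted p = 0.00861, edgeR), while n-R5s193, which contains it, stood at 250, 284 and 419 CPM against 180, 186 and 189 CPM (-0.78 ± 0.40, adjusted p = 0.163). None of the 5 rows held a unique count, so they may count the same reads as each other and as the 5S copies and are no separate evidence.

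**Figure D5:**
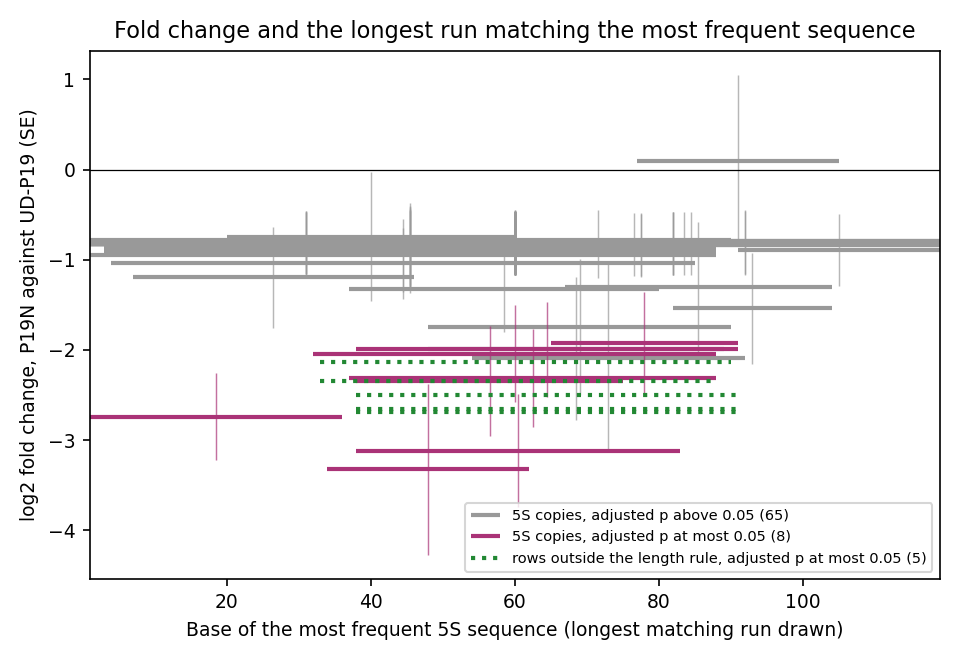
Log2 fold change (P19N against UD-P19) of each tested 5S copy, drawn as a horizontal line over the bases of its longest run in common with Rn5s, with the SE as a thin vertical line, and dotted for the 5 rows outside the 5S copies that share 30 or more bases. The lines of 7 of the 8 called copies lie within bases 32 to 91, at -3.32 to -1.92, and those that reach the 3′ end with 55 or more bases lie at -0.84 to -0.79.

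With identical transcripts summed over the whole table, the 73 tested rows became 33 sequences, of which 11 were called lower and none higher (edgeR quasi-likelihood test), beside 11.5% of all 1092 sequences tested. The 5S median of the log2 fold change was -1.08 beside -0.06 over all sequences, and in 26 of the 33 the groups did not overlap with P19N below, beside 18.9% of all sequences. In this fit the most frequent sequence, with 52587, 142037 and 79809 counts in UD-P19 and 73879, 77023 and 39694 in P19N exosomes, was called at -0.99 ± 0.33 (SE, adjusted p = 0.0457). The other two additions to the 8 copies above were n-R5s115 (-1.20 ± 0.36, adjusted p = 0.0301) and n-R5s151 (-1.51 ± 0.48, adjusted p = 0.0364), a copy in an intron of Npas1 on the opposite strand. The calls changed with each library left out. Without P19N replicate 5 there were 2 calls, beside 3.32% of all sequences, and without P19N replicate 4 there were 3, beside 4.28%. Without UD-P19 replicate 3 or P19N replicate 6 there were 6, beside 7.58% and 11.4%. Without UD-P19 replicate 2 there were 14, beside 19%, and without UD-P19 replicate 1 there were 18, beside 10.8%. On unique counts 3 of 14 were called (10.6% of all), on exact-match counts 18 of 30 (14.9% of all), and at an adjusted p of at most 0.01, 4 of 33 (4.95% of all).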

How the data were processed

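Exosomal RNA of 6 preparations, which the paper describes as independent, was made into libraries with a NEBNext small RNA kit. By the methods, P19N medium was collected repeatedly as the cultures aged. Whether the P19N libraries came from the same flasks is not given, so they may not be fully independent of each other. The authors trimmed and merged the reads, counted them with CLC Genomics Workbench defaults against GRCm38 noncoding RNAs, and deposited raw counts per transcript, with further columns of unique and exact-match counts. Their columns of group means, fold changes and p-values were not used. How reads matching several rows were counted is not given in the sources used here. Rows were matched to GENCODE vM21 by transcript ID (5770 with version, 103 unmatched, the 5S rows all matched).

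The main test was edgeR 4.0.16 (R 4.3.3), quasi-likelihood with TMM scaling, on rows with at least 15 counts over 6 libraries, with Benjamini-Hochberg adjustment over all rows. Log2 fold changes are P19N against UD-P19, CPM are TMM-scaled, and DESeq2 1.42.0 was an alternative. Levels are per transcript, not per length. Shares were compared by exact permutation (scipy 1.17.1, 20 relabellings). Edits, runs and substitutions were computed with Biopython 1.88. The fits were tested on simulated data, and the outcome is not reported here. The table held 454499 to 887460 counts per library, which is less than the sequencing depth.

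Named copies are those called, the 3 highest totals of identical and of variant copies, the 3 highest unique totals, and the 3 highest and 3 lowest fold changes with a mean of at least 10 counts. Others were named for their sequence after their values were seen. The members and lists were chosen with earlier results of these data known. The sequences of the copies are not reported here.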

Additional observations from a re-analysis of the deposited data

How the results depend on the processing

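Against 8 copies called lower in the main fit, there were 64 with DESeq2, 59 with its size factors in edgeR, 67 with factors set without rRNAs, 62 without Gm42418, 58 with a filter of 5 counts, 56 on exact-match counts, 3 on unique counts and 3 at an adjusted p of 0.01. Leaving out 1 library gave 6 to 60. Against 11 sequences, there were 3 on unique counts, 18 on exact-match counts and 4 at an adjusted p of 0.01 (added after the data were seen), and 2 to 18 with 1 library left out. The other settings run left both counts within 1.5 times of the main value, and none called a copy or sequence higher. The summed 5S rRNA (-1.25) was not called with total counts (-0.75), without snRNAs in the scaling (-0.93), on unique counts (-1.34) or with identical transcripts summed throughout (-1.07, added after the data were seen), and with 1 library left out it ran from -1.38 to -0.91 and was not called without P19N replicate 4 or 6. The difference in the log2 ratio of variant to identical copies was -0.06, and -0.35 with unique counts for the variant copies (-0.14 without UD-P19 replicate 2, added after the data were seen). The difference in 5S share was -8.32 points over all counts. It was -0.0666 among unique counts (exact permutation p = 1.0), whose part of all counts differed between the groups. Over rRNA counts only it was 0.188 points, from which nothing is read, since 5S rows made up 99.5 to 99.9% of those counts. With 1 library left out the difference over all counts ran from -11.0 to -3.82 points. The difference among unique counts turned to 0.122 points without UD-P19 replicate 2. n-R5s5 turned from -1.54 to 0.10 without UD-P19 replicate 2, and its lowest value with 1 library left out was -2.23. The cause of these changes was not tested. No paired analysis was possible because the groups share no replicate number. With 3 libraries a group the permutation tests cannot go below 0.1, copies at a few counts per library are imprecise, and identical copies cannot be separated at any depth.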
